A study of Mus musculus with 4 samples.

Results

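Connexin genes of the mouse cochlea were examined in sorted hair cells and non-hair cells with and without gentamicin. The 8 genes Gjb2, Gjb6, Gja1, Gja4, Gja5, Gjc1, Gjc3 and Gjb1 were taken by symbol from the 23420 genes listed, and all 8 were found in every table. Samples came from cochleae of postnatal day 1 mice of the CD1 strain that carried Atoh1-GFP, a transgene in which an Atoh1 enhancer drives green fluorescent protein in hair cells. In all groups the organs were kept in culture overnight in 5% CO2 and 5% O2 with penicillin, and the treated groups then received 0.5 mM gentamicin, an aminoglycoside antibiotic that kills hair cells, for 3 h. GFP-positive cells (hair cells, HC) and GFP-negative cells (non-hair cells, NHC) were sorted by flow cytometry, and cells with weak GFP were gated out because some inner phalangeal cells carry the reporter. NHC therefore mixed supporting cells, cells of the greater and lesser epithelial ridges and cells of surrounding tissue. This gave 4 groups (HC control, HC gentamicin, NHC control and NHC gentamicin) of 3 replicates each, which the study calls biological replicates. How many animals went into a replicate is not given in the sources used here.

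Connexins assemble into gap junction channels that join the cytoplasm of neighbouring cells and pass ions and small metabolites. In the cochlea, supporting cells of the sensory epithelium are coupled by channels of Gjb2 and Gjb6 products, as are fibrocytes of the lateral wall, and this network is held to carry potassium away from hair cells and back to the stria vascularis. GJB2 and GJB6 are genes of inherited deafness in humans, and hair cells of the mature cochlea are held to lack gap junctions. Gja1 encodes the most widespread connexin, found in fibrocytes, mesenchyme and glia. Gja4 and Gja5 are connexins of vascular endothelium, Gjc1 is known from mural cells and developing vessels and heart, and Gjc3 and Gjb1 are connexins of Schwann cells.

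Gjb2 (chromosome 14, 57098600 to 57104702) and Gjb6 (chromosome 14, 57123303 to 57133611) are neighbours on the minus strand, 18600 bases apart. Gja1 lies on chromosome 10 (56377330 to 56402513). These positions are from GENCODE M21 on GRCm38, the assembly also called mm10. The promoters of Gjb2 and Gjb6 are shown because these genes had the highest levels per kilobase of exon in both populations. That of Gja1 is shown because this gene separated the populations most. Each sequence holds the 250 bases before and the 50 bases from the RefSeq start onward (GRCm38.p6). Capitals mark a GC box (GGGCGG, or CCGCCC on the other strand) or a TPA response element (TGANTCA). The Gjb2 window is chr14:57104653-57104952, the Gjb6 window chr14:57133562-57133861, both minus strand, and the Gja1 window chr10:56377050-56377349, plus strand.
Gjb2: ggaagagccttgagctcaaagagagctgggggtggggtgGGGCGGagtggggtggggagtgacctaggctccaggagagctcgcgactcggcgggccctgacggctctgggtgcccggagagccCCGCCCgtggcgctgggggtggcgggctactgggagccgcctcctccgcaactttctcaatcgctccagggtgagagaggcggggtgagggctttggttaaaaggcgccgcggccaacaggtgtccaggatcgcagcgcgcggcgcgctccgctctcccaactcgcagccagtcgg
Gjb6: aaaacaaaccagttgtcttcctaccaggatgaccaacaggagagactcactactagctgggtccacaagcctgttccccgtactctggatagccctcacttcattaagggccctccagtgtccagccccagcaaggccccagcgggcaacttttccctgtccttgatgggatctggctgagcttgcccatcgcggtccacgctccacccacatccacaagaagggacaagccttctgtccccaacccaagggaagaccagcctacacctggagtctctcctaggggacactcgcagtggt
Gja1: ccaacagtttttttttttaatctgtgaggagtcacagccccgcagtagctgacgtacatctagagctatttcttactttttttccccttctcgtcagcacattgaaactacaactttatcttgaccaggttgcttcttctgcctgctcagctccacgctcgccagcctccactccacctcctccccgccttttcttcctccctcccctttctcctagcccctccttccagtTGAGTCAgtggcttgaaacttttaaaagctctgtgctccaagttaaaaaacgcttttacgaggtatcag
The Gjb2 window had 70% G and C bases and 2 GC boxes, which begin at -211 and -126 from the start. The Gjb6 window had 57.3% G and C and neither element, and the Gja1 window had 47.7% and 1 TPA response element, which begins at -19 from the RefSeq start. The GENCODE start of Gja1 (56377330) lies further downstream in this window. A TATA box (TATAAA, or TTTATA on the other strand) was searched as well and was in none of these 3 windows. Over all 32851 promoter windows of the same length, 35.7% held the GC box, 13.6% the TATA box and 7.81% the TPA response element, and none of the motifs contains another. A match describes letters and not a bound site.

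Each replicate carried 22400605 to 28152137 reads on genes, recovered from the scores as described with the processing. The 8 hair cell markers were all higher in HC without drug, and their summed score was 10954 to 11362 in HC and 211 to 245 in NHC. Markers of other cell types stood at different levels in HC. Summed supporting cell markers in control HC stood at 126% of their control NHC level, while endothelial markers stood at 6.44%, fibrocyte and mesenchyme markers at 5.44%, macrophage markers at 11.7%, Schwann cell and glia markers at 30.4%, mural markers at 36.0% and melanocyte markers at 39.5%. Summed neuron markers stood at 137%. Some sums hide opposite members. Of 8 supporting cell markers Lfng (log2 difference 1.52) and Jag1 (0.95) were higher in HC, Slc1a3 (-2.07) was lower and 5 were not called. Of 8 mural markers 7 were lower and Myh11 was higher (1.45), and Notch3 (mean score 152) held most of the HC sum. Of 4 neuron markers Rbfox3 was higher (2.87), Prph was lower (-2.84) and 2 were not called. No marker of these lists was at 0 in all 3 control HC replicates except Mlana, a melanocyte gene. In sorted bulk samples a lower score can come from fewer cells of a type or from less RNA per cell, and these cannot be told apart.

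Gjb2 and Gjb6 made up most of the connexin transcript pool in every group. Levels of different genes were compared as the score above its offset of 1, divided by the length of the gene's exons in kilobases. This length merges the exons of all annotated transcripts of a gene (10257 bases for Gja1 and 2674 for Gjb6). It can exceed the length of the transcript present. On this scale Gjb2 stood at 173 ± 27.6 (SD, n = 3) in control HC and 154 ± 24.8 (SD, n = 3) in control NHC, and Gjb6 at 33.8 ± 6.88 and 21.6 ± 3.26 (SD, n = 3). The group means of the other 6 genes lay between 0.0155 and 7.25. Without division by length, Gja1 scored above Gjb6 in control NHC (means 62.3 and 58.9) and below it in treated NHC (53.1 and 59.9). Together Gjb2 and Gjb6 held 94.7% ± 1.13 (SD, n = 3) of the summed level per kilobase of the 20 connexin genes in control HC and 87.4% ± 2.28 (SD, n = 3) in control NHC. With gentamicin the shares were 93.4% ± 2.53 and 88.0% ± 1.88 (SD, n = 3).

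**Figure D1:**
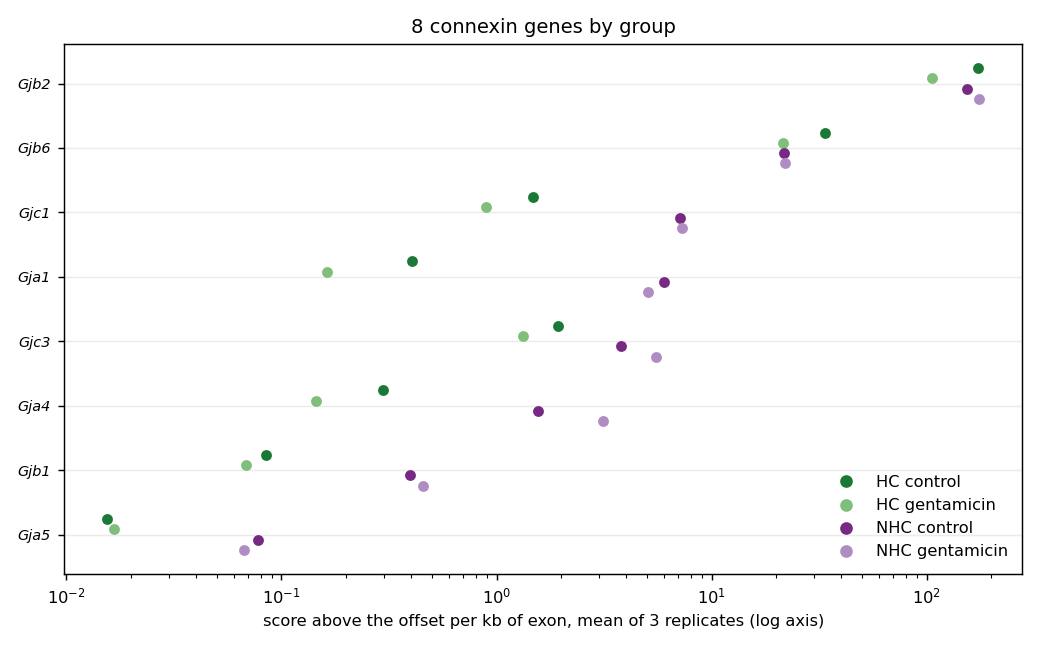
Mean level of the 8 connexin genes in the 4 groups, as the score above the offset per kilobase of exon on a log axis, with 1 point for each group of 3 replicates. Gjb2 (105 to 175) and Gjb6 (21.6 to 33.8) lie to the right of the other 6 genes in every group.

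The order of the genes below Gjb6 differed between the populations. In control HC the order by level per kilobase was Gjc3 (1.93 ± 0.0379), Gjc1 (1.47 ± 0.200), Gja1 (0.405 ± 0.0901), Gja4 (0.295 ± 0.102), Gjb1 (0.0848 ± 0.0518) and Gja5 (0.0155 ± 0.00756), all SD with n = 3. The ranges of Gja1 and Gja4 overlapped between replicates and those of the other neighbours in this order did not. In control NHC the order was Gjc1 (7.13 ± 0.390), Gja1 (5.98 ± 0.293), Gjc3 (3.81 ± 0.506), Gja4 (1.56 ± 0.616), Gjb1 (0.394 ± 0.104) and Gja5 (0.0780 ± 0.0400), all SD with n = 3, and no neighbours overlapped. Gja1 thus ranked above Gjc3 in control NHC and below it in control HC. In treated NHC Gjc3 (5.54 ± 1.48) stood above Gja1 (5.08 ± 0.455), with overlapping ranges (SD, n = 3). Without division by length, Gja1 scored higher than Gjc3 there (means 53.1 and 25.1). In control NHC the undivided mean of Gja1 (62.3) was likewise above that of Gjc1 (36.7). The places of Gja1 below Gjc1 in control NHC and below Gjc3 in treated NHC thus rest on the exon lengths used.

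Which population held each connexin transcript without drug was read from the contrast of control HC with control NHC. Gja1, Gjc1, Gjc3, Gja4 and Gjb1 were lower in HC, Gjb6 was higher, and Gjb2 did not pass the test. This is 6 of the 7 genes tested, called at a Benjamini-Hochberg adjusted p under 0.05 from limma, and 74% of all 16088 genes tested were called in this contrast (42.1% lower and 31.9% higher in HC). Gja5, with 78 reads over the 12 replicates, was under the minimum of 100 reads and was not tested. In 5 of the 7 genes all HC replicates lay below all NHC replicates and in 1 above, against 44.6% and 34.5% of all genes tested. The median log2 difference over the 7 genes was -0.89, and it was -0.12 over all genes tested.

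Gjb2 encodes Cx26, the main gap junction protein of cochlear supporting cells. Its score was 411, 355 and 487 in the control HC replicates and 359, 319 and 436 in the control NHC replicates. The ranges overlapped, and the mean in HC was 113% of that in NHC above the offset. The log2 difference was 0.17 (95% interval -0.33 to 0.67, limma adjusted p = 0.518), so a higher level in HC by up to 0.67 or a lower one by up to 0.33 on the log2 scale lies within the interval.

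Gjb6 encodes Cx30, which forms mixed channels with Cx26. Scores of Gjb6 were 87.0, 75.4 and 111 in control HC and 60.1, 49.6 and 66.9 in control NHC, with all 3 HC replicates above all 3 of NHC. The log2 difference was 0.62 (standard error 0.24, limma adjusted p = 0.0365). This call was lost when either NHC control replicate 1 or 2 or either HC control replicate 1 or 3 was left out, with adjusted p from 0.0293 to 0.139 over the 6 such fits, and with no read minimum (adjusted p = 0.0518).

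The ratio of Gjb2 to Gjb6 within a replicate does not depend on how replicates were scaled. It was 4.64 ± 0.206 (SD, n = 3) in control HC and 6.40 ± 0.290 (SD, n = 3) in control NHC. The 3 HC values (4.40 to 4.76) lay below the 3 NHC values (6.06 to 6.60). The exact two-sided permutation test, run without pairing, gave p = 0.1, the smallest it allows here (0.225 after Benjamini-Hochberg adjustment over 9 tests of ratios). Per kilobase of exon the ratios were 5.16 and 7.11.

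Gja1 encodes Cx43 and separated the populations most among the 7 genes. Its score was 4.17, 6.00 and 5.29 in control HC and 58.9, 64.4 and 63.7 in control NHC, and above the offset the HC mean was 6.77% of the NHC mean. The log2 difference was -3.61 (standard error 0.15, limma adjusted p = 1.61e-09), and the call held with each replicate left out. That percentage lay beside those of the summed endothelial markers (6.44%) and fibrocyte and mesenchyme markers (5.44%). What part RNA of other cell types had in the Gja1 score of HC was not tested.

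Gjc1 encodes Cx45. Scores were 7.34, 9.34 and 8.43 in control HC and 38.6, 36.8 and 34.7 in control NHC, which is 20.7% above the offset. The groups were far apart, with a log2 difference of -2.14 (standard error 0.20, limma adjusted p = 1.57e-06).

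Of the endothelial connexins, Gja4 encodes Cx37 and was low throughout. The control HC replicates scored 1.35, 1.68 and 1.46, and the control NHC replicates 2.90, 3.18 and 4.82. The log2 difference was -1.25 (standard error 0.51, limma adjusted p = 0.0422), with no overlap, but the adjusted p passed 0.05 whenever any 1 of the 6 control replicates was left out (0.0505 to 0.129) and with no read minimum (0.0592). The standard error of Gja4 rests on all 4 groups, so it includes the spread of the treated NHC replicates (2.39, 13.5 and 2.83). Gja5, which encodes Cx40, scored 1.04 to 1.13 in control HC and 1.25 to 1.70 in control NHC. These Gja5 scores rest on 6 and 34 reads summed over 3 replicates. In GENCODE M21 the span of Gja5 (chromosome 3, 96904693 to 97077416) also overlaps Gpr89 on the opposite strand, and whether reads were counted by strand is not given in the sources used here.

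The Schwann cell connexins were lower in HC too, with log2 differences nearer to 0 than that of Gja1. Gjc3, which encodes Cx29, scored 9.29, 9.34 and 9.59 in control HC and 15.3, 19.7 and 17.8 in control NHC. Its log2 difference was -0.89 (standard error 0.18, limma adjusted p = 6.66e-04), and above the offset HC stood at 50.7% of NHC. Gjb1, which encodes Cx32, scored 1.22, 1.17 and 1.05 against 1.50, 1.67 and 1.85, a log2 difference of -0.54 (standard error 0.14, limma adjusted p = 0.00386). Schwann cell and glia markers stood at 30.4% in the same replicates, with 8 of 8 lower in HC. Because 1 is added to every score, log2 differences of genes near 1, such as Gjb1 and Gja4, are smaller than the differences in reads.

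**Figure D2:**
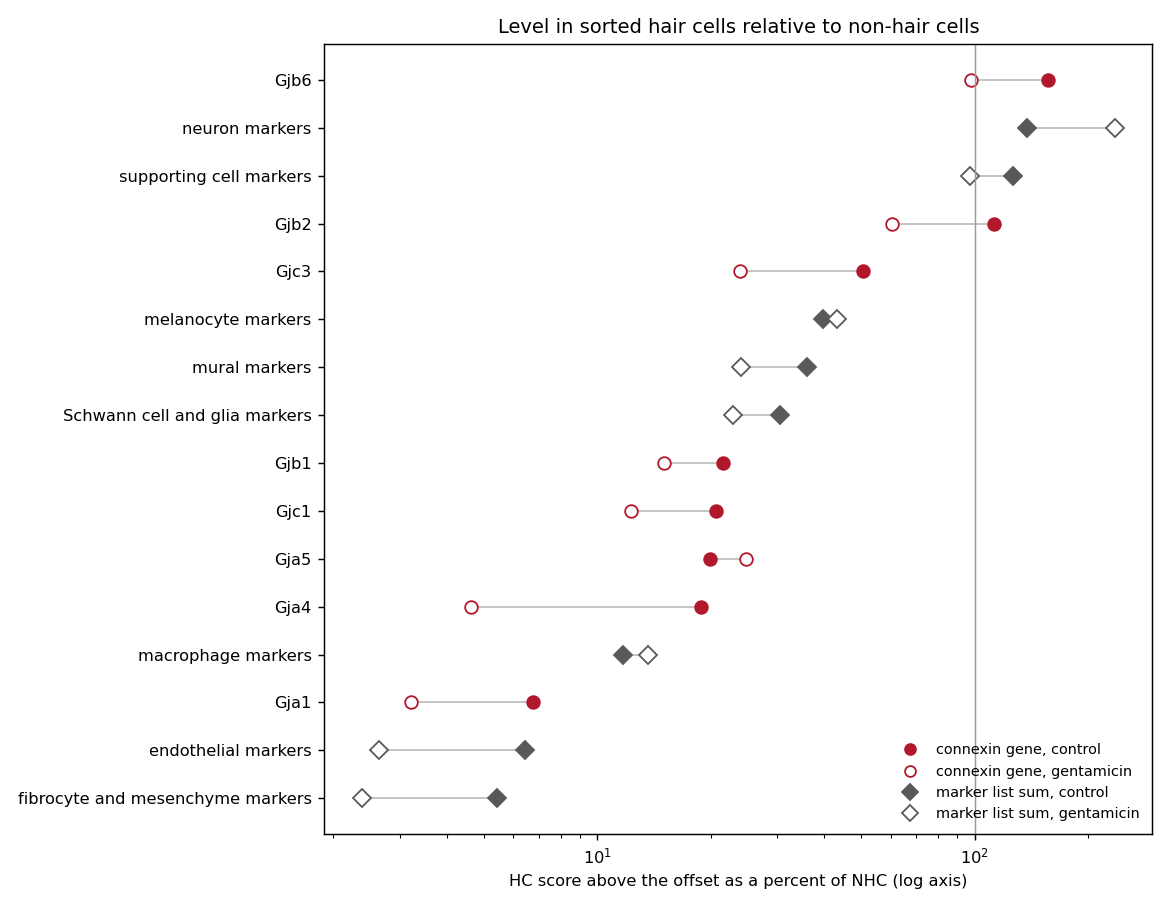
Mean score of HC above the offset as a percent of NHC, on a log axis, for the 8 connexin genes (circles) and the summed markers of 8 other cell types (diamonds), filled without drug and open with gentamicin. Without drug Gjb2 (113%) and Gjb6 (156%) lie near the supporting cell sum (126%), whose members differ in direction. Likewise without drug, Gja1 (6.77%) lies near the endothelial (6.44%) and fibrocyte and mesenchyme sums (5.44%).

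Whether gentamicin changed connexin transcripts in hair cells was tested first. Gjb2, Gja1 and Gjc1 fell in HC after 3 h, and none of the 7 genes tested rose at the study's thresholds. A gene was called here at the thresholds of the study, a change by more than 1.2-fold with an unadjusted p under 0.01, and 3 of the 7 genes tested were called lower. Of all genes tested 27.5% were called, 14.8% lower and 12.7% higher. With reads scaled by each replicate's total, the 2037 genes called higher and 2381 called lower over the whole table became 2774 and 1591. The median log2 fold change of the 7 genes was -0.66 and that of all genes tested was -0.09, and all 7 estimates were below 0. In 4 genes (Gjb2, Gja1, Gjc1 and Gjc3) the treated replicates all lay below the controls, as they did for 33.1% of all genes tested. No gene of the 7 had all treated replicates above the controls, against 21.7% of all genes tested.

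Gja1 had the clearest change. Its score went from 4.17, 6.00 and 5.29 in control HC to 2.86, 2.30 and 2.85 in treated HC, with no overlap. The log2 fold change was -0.94 (standard error 0.15, unadjusted p = 4.45e-05, limma adjusted p = 8.21e-04). Gja1 was called in all 6 fits that left out a replicate, with estimates from -1.09 to -0.82, and in every other fit tried. The values rest on 283 reads in the 3 control replicates and 128 in the 3 treated ones.

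Gjb2 was 411, 355 and 487 in control HC and 298, 156 and 309 in treated HC. The treated replicates lay below the controls, and replicate 2 was the lowest. The log2 fold change was -0.77 (standard error 0.23, unadjusted p = 0.00634, limma adjusted p = 0.0250). Without treated replicate 2 the estimate was -0.45 and the gene was no longer called, nor was it without control replicate 1 (-0.77) or control replicate 3 (-0.65), with reads scaled by their totals (-0.67), with voom weights (-0.68) or with the HC groups fitted alone. Its direction was the same in all of these fits.

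Gjc1 fell from 7.34, 9.34 and 8.43 to 5.65, 3.72 and 6.99, again with the lowest value in treated replicate 2. The log2 fold change was -0.66 (standard error 0.20, unadjusted p = 0.00697, limma adjusted p = 0.0268). Gjc1 was called in 2 of the 6 fits that left out a replicate. The call was lost without control replicate 2 or 3 (-0.58 and -0.65) or treated replicate 1 or 2 (-0.71 and -0.41), with total-read scaling, with voom weights, with the HC groups fitted alone and with the replicate block.

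Gjb6 and Gjc3 did not reach the study's thresholds with all replicates and the 4 groups in 1 model. Gjb6 scored 87.0, 75.4 and 111 in control HC and 78.2, 35.7 and 62.2 in treated HC, and the ranges overlapped (log2 fold change -0.69, standard error 0.24, unadjusted p = 0.0160, limma adjusted p = 0.0487). The Gjb6 estimate was -0.37 without treated replicate 2, and without treated replicate 1 it was -0.94 and the gene was called (unadjusted p = 0.00233 by limma). Gjc3 scored 9.29, 9.34 and 9.59 without drug and 6.03, 6.78 and 7.53 with it. Its replicates did not overlap, and the log2 fold change was -0.48 (standard error 0.18, unadjusted p = 0.0194, limma adjusted p = 0.0561). With the HC groups fitted alone Gjc3 was called (unadjusted p = 0.00646), and with the replicate block both genes were called. For Gja4 and Gjb1 the estimates were -0.27 (95% interval -1.38 to 0.84) and -0.03 (95% interval -0.34 to 0.27), and the replicates overlapped. The Gja4 interval rests on the spread in all 4 groups, which includes a treated NHC replicate at 13.5. With the HC groups fitted alone the Gja4 standard error was 0.12 in place of 0.51, and the gene was not called (unadjusted p = 0.0545 by limma). Gja5 scored 1.04 to 1.13 without drug and 1.04 to 1.21 with it, on 6 and 7 reads.

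**Figure D3:**
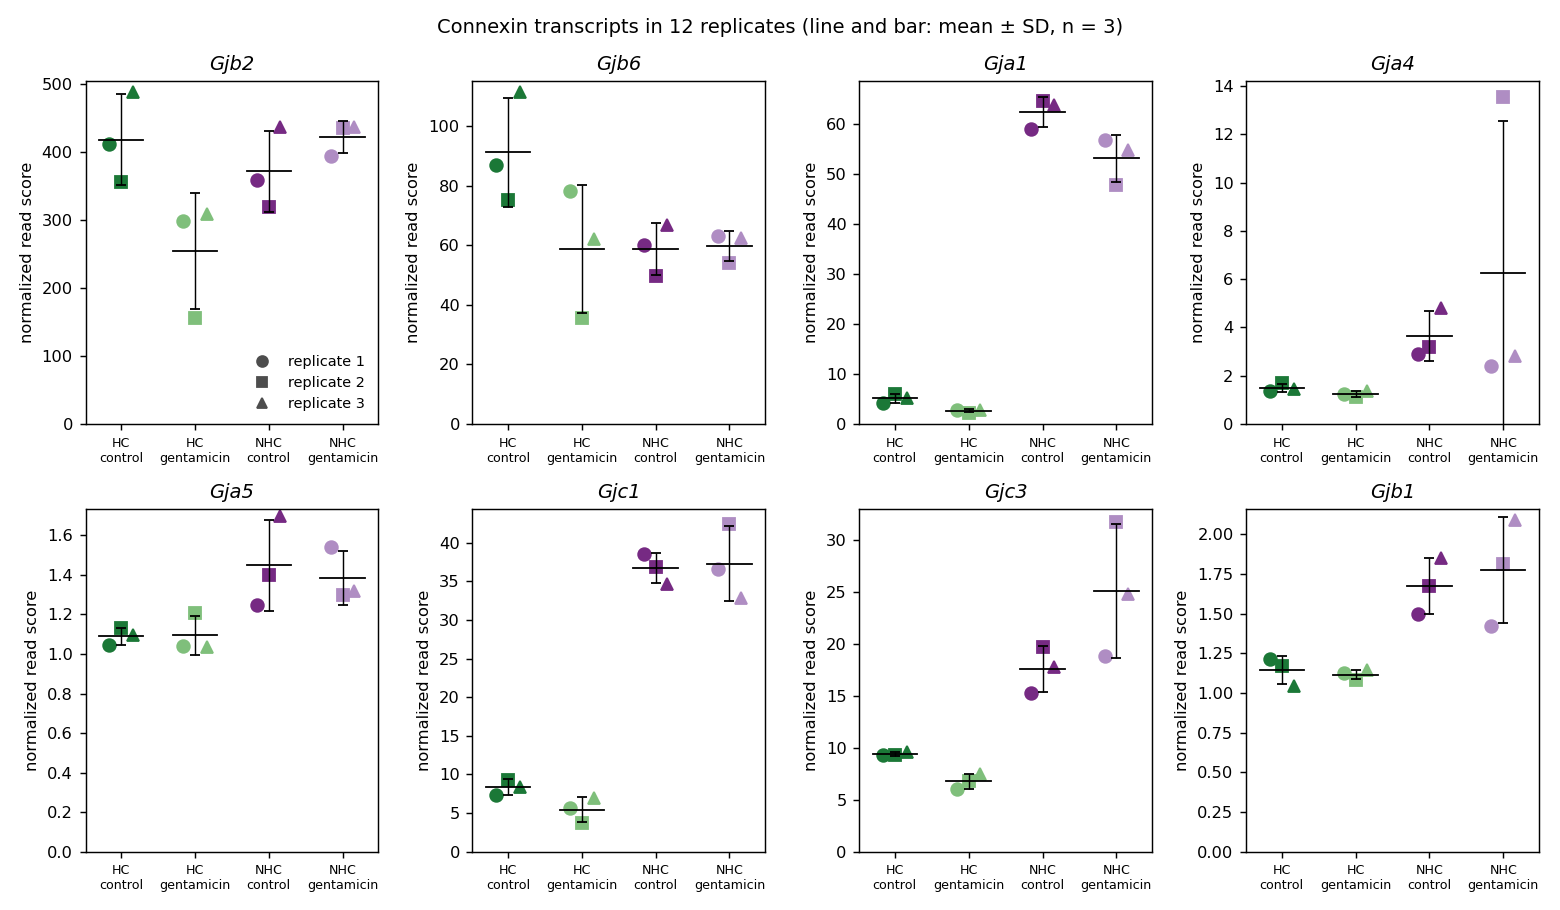
Normalized read score of the 8 connexin genes in each of 12 replicates, with circles, squares and triangles for replicates 1, 2 and 3 and a line with a bar for the mean ± SD (n = 3). All axes begin at 0 and a gene without reads has a score of 1. Gjb2 in gentamicin-treated HC is lowest in replicate 2 (156), and Gja4 in gentamicin-treated NHC is highest in replicate 2 (13.5).

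The fall of Gjb2 in HC came with a fall in the summed supporting cell markers. This sum was 1295, 1299 and 1502 in control HC and 872, 588 and 1102 in treated HC, so treated replicate 2 was the lowest for both Gjb2 and the markers. Of the 8 markers, Hes5 (log2 fold change -2.02) and Lfng (-1.17) fell at the study's thresholds, and the other 6 were not called. Of all genes tested 14.8% were called lower. Among those 6, the treated replicates of Hey2 all lay above the controls, with a log2 fold change of 0.37 (limma adjusted p = 0.206). Gjb2 divided by this sum was 0.304 ± 0.0278 (SD, n = 3) in control HC and 0.295 ± 0.0410 (SD, n = 3) in treated HC, with overlapping replicates (exact two-sided permutation p = 0.9, and 0.9 after adjustment over the 9 tests of ratios). The ratio of Gjb2 to Gjb6 was 4.64 ± 0.206 and 4.45 ± 0.591 (SD, n = 3; exact two-sided permutation p = 0.7, adjusted 0.788). What part supporting cell RNA had in the fall of Gjb2 was not tested.

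**Figure D4:**
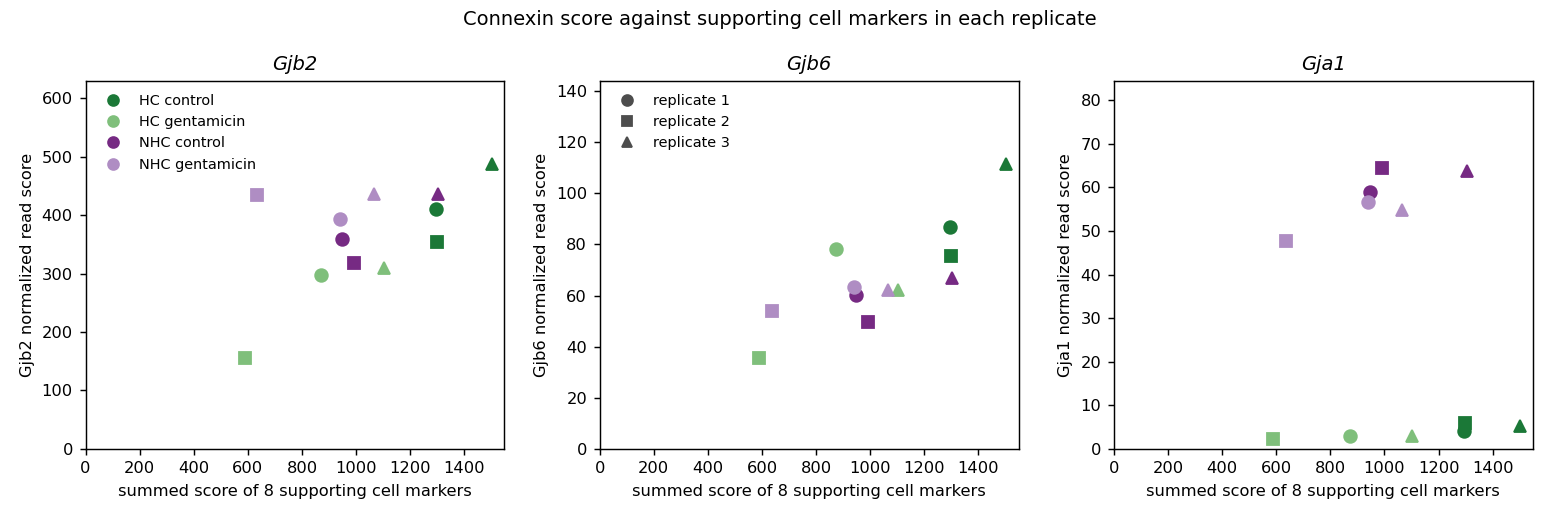
Scores of Gjb2, Gjb6 and Gja1 against the summed score of 8 supporting cell markers, with 1 point for each of 12 replicates, the group as colour and the replicate as shape. In HC both Gjb2 and Gjb6 are lowest where the marker sum is lowest (588, gentamicin replicate 2) and highest where it is highest (1502, control replicate 3), while Gja1 separates HC (2.30 to 6.00) from NHC (47.8 to 64.4) at like marker sums.

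Summed markers of the cells known for the other connexins were lower in treated HC than in control HC. The endothelial sum was 18.1 to 36.3 without drug and 10.3 to 17.7 with it, and the fibrocyte and mesenchyme sum was 261 to 560 and 180 to 226. Schwann cell and glia markers summed to 272 to 347 and 157 to 218, and mural markers to 184 to 224 and 112 to 137. At the study's thresholds 1 of 9 endothelial, 4 of 8 fibrocyte and mesenchyme, 3 of 8 Schwann cell and glia and 4 of 8 mural markers fell, and no gene of these lists rose, beside 14.8% of all genes tested called lower. The share of endothelial markers was no larger than that background. Their part in the falls of Gja1 and Gjc1 was not tested. The hair cell markers summed to 10954 to 11362 without drug and 9315 to 10457 with it, and 0 of these 8 genes were called. Their estimates were below 0 in 4 genes and above 0 in 4. Treated replicates of Otof (mean score 3899 without drug and 2889 with it) and Myo7a all lay below the controls. Those of Atoh1, Gfi1 and Espn all lay above.

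In NHC none of the 7 genes met the study's thresholds with limma. At an unadjusted p under 0.05 there was 1, Gjc3, at an adjusted p under 0.05 there were 0, and voom weights also gave 0. Over all genes tested 5.45% met the thresholds in NHC, 3.18% higher and 2.26% lower. The median log2 fold change of the 7 genes was 0.07, and that of all genes tested was -0.01.

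Gjb2 in NHC scored 359, 319 and 436 without drug and 394, 434 and 437 with it. The ranges overlapped (log2 fold change 0.19, 95% interval -0.31 to 0.70). Summed supporting cell markers were 946 to 1304 in control NHC and 635 to 1067 in treated NHC. Gjb2 divided by that sum was 0.344 ± 0.0304 and 0.503 ± 0.155 (SD, n = 3), without overlap (exact two-sided permutation p = 0.1, the smallest possible, adjusted 0.225). Gjb6 scored 60.1, 49.6 and 66.9 without drug and 63.3, 54.1 and 62.3 with it (log2 fold change 0.03, 95% interval -0.50 to 0.57).

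Gja1 in NHC scored 58.9, 64.4 and 63.7 without drug and 56.6, 47.8 and 54.8 with it. It was the only gene of the 7 in which the NHC replicates did not overlap, with the treated ones lower, as for 7.68% of all genes tested. No gene of the 7 was higher without overlap, against 10.1% of all genes tested. The log2 fold change was -0.24 (95% interval -0.56 to 0.09, limma adjusted p = 0.437). Gjc1 scored 38.6, 36.8 and 34.7 and then 36.6, 42.5 and 32.8 (log2 fold change 0.02, 95% interval -0.42 to 0.45).

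Gjc3 in NHC went from 15.3, 19.7 and 17.8 to 18.9, 31.7 and 24.8, and the ranges overlapped. The estimate was 0.49 (standard error 0.18, unadjusted p = 0.0172, limma adjusted p = 0.199). Without treated replicate 1 it was 0.68 and met the thresholds, and without treated replicate 2 it was 0.31 (unadjusted p = 0.0816, limma adjusted p = 0.566). With the replicate block it also met the thresholds (unadjusted p = 0.00698 by limma). The Schwann cell and glia markers summed to 849 to 1140 without drug and 696 to 1071 with it.

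Gja4 in NHC turned on 1 replicate. It scored 2.90, 3.18 and 4.82 without drug and 2.39, 13.5 and 2.83 with it. The estimate of 0.35 (standard error 0.51) became -0.45 without treated replicate 2. In that replicate the summed endothelial markers were also the highest of the group, at 536 against 447 and 512, a much smaller spread than that of Gja4. The members of this sum did not move together. Emcn (246 against 169 and 92.0) and Tek (23.4 against 21.6 and 20.9) were highest in replicate 2. Pecam1 (27.3 against 34.8 and 46.7), Flt1 (19.2 against 41.8 and 61.5) and Cldn5 (56.3 against 59.9 and 93.7) were lowest there. The other endothelial markers lay between replicates 1 and 3. Gjb1 scored 1.50 to 1.85 and 1.43 to 2.09, and Gja5 1.25 to 1.70 and 1.30 to 1.54.

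**Figure D5:**
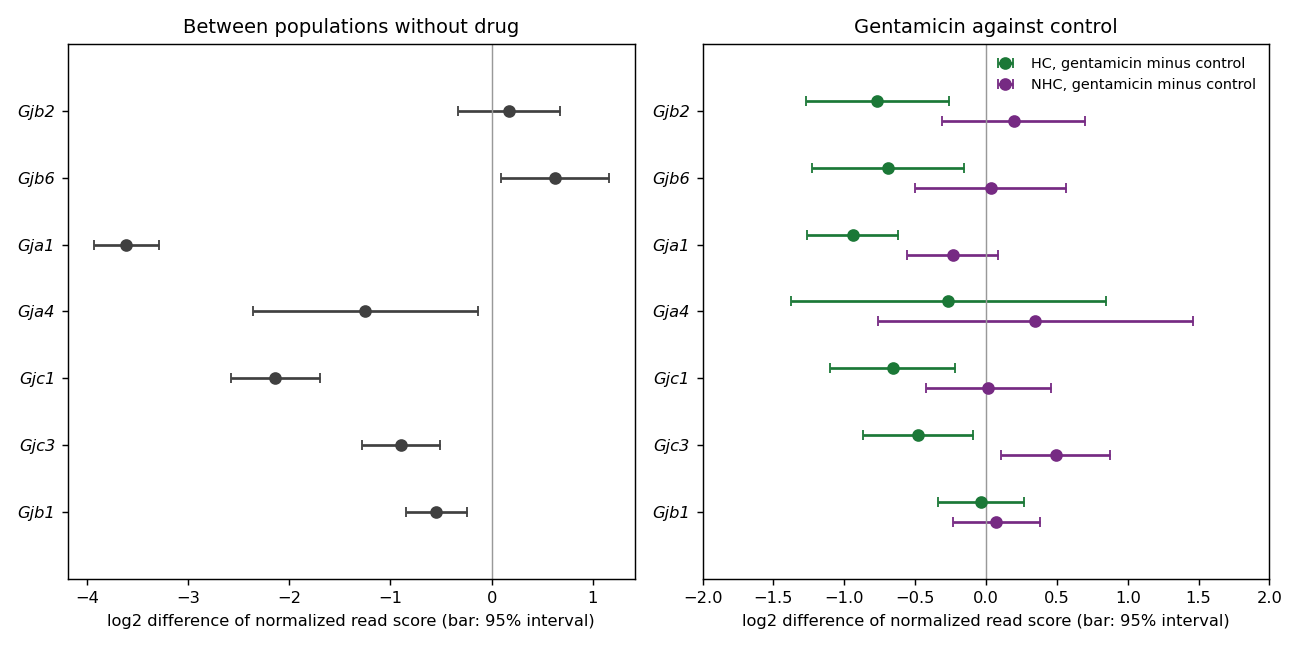
Log2 differences of the normalized read score for the 7 connexin genes tested, with 95% intervals from limma: control HC minus control NHC on the left, and gentamicin minus control in HC (green) and NHC (purple) on the right. In HC the intervals of Gjb2, Gjb6, Gja1, Gjc1 and Gjc3 lie below 0, and in NHC that of Gjc3 lies above 0.

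Whether HC and NHC responded differently was tested as an interaction. Gja1 and Gjc3 passed an adjusted p under 0.05, 2 of the 7 genes, both with a lower response in HC. Of all genes tested 13.4% passed, 6.56% lower and 6.85% higher. For Gjc3 the responses were -0.48 in HC and 0.49 in NHC, and their difference was -0.97 (standard error 0.25, limma adjusted p = 0.0278). For Gja1 they were -0.94 and -0.24, a difference of -0.71 (standard error 0.21, limma adjusted p = 0.0451). The Gja1 call was lost with the replicate block (limma adjusted p = 0.0589), total-read scaling (0.0598), no read minimum (0.0578) and voom weights (0.0516), and that of Gjc3 with voom weights (0.0853). These calls were close to the threshold. Over the 12 fits that left out a replicate the adjusted p ranged from 0.0140 to 0.0612 for Gjc3, which was called in 6 fits, and from 0.0247 to 0.103 for Gja1, which was called in 3. Gjb2 had a difference nearly as large as that of Gjc3, -0.96 (standard error 0.32), and did not pass (limma adjusted p = 0.0722), although it did with the replicate block (0.0325). For Gjb6 and Gjc1 the differences were -0.72 and -0.67 (limma adjusted p = 0.184 and 0.135). Interaction estimates were also below 0 in 9 of 9 endothelial (median -0.98) and 7 of 8 fibrocyte and mesenchyme markers (-1.12). So were 7 of 8 Schwann cell and glia (-0.37), 6 of 8 mural (-0.35) and 7 of 8 supporting cell markers (-0.36). Hair cell, macrophage and melanocyte markers were split evenly, and 3 of 4 neuron markers lay above 0. No more than 1 gene of any marker list was called. The part of other cell types in these differences was not tested.

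The rest of the family was sparse. Of 12 other connexin genes 5 had enough reads to be tested, and Gja10 was listed without reads in 10 replicates. Gje1 fell in HC from 5.24, 6.01 and 6.06 to 3.70, 3.60 and 3.45 (log2 fold change -0.68, limma adjusted p = 0.00355). The span of Gje1 overlaps Nmbr on the opposite strand, so reads of these genes may not be told apart. Without drug Gjd3 was higher in HC (log2 difference 0.89) and Gja3 lower (-0.76), and in NHC gentamicin moved 0 of the 5 past the thresholds, with Gjd3 alone at an unadjusted p under 0.05. Pannexins, which form channels in the cell membrane and are related in shape to connexins, were called with drug in 0 of 2 genes in either population, and only Panx2 had an unadjusted p under 0.05. Panx1 (-0.78) and Panx2 (-0.80) were lower in control HC.

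Genes of proteins that bind or modify connexins changed in both directions. In HC with gentamicin the junction scaffold gene Tjp1 (log2 fold change 0.37) and the kinase gene Csnk1d (0.39) rose, and the kinase gene Src (-0.67) and the ubiquitin ligase gene Nedd4 (-0.35) fell. In NHC only Tjp1 was called among the partner genes (0.33, unadjusted p = 0.00776, limma adjusted p = 0.151), and the interaction was called for Csnk1d (0.34, limma adjusted p = 0.0340). Without drug Ubqln4 (1.22) and Cnst (0.63) were higher in HC, and 4 of the 10 genes were lower, led by Cav1 (-5.28), Nov (-4.92) and Src (-1.62).

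Potassium recirculation is the transport that the gap junction network is held to serve. None of 10 genes of this list was called with gentamicin in NHC by limma, and Slc12a7 alone had an unadjusted p under 0.05. Without drug the pump subunit gene Atp1b1 was higher in HC (log2 difference 1.04). The potassium channel gene Kcnq1 (-1.75) and the cotransporter gene Slc12a2 (-1.22) were lower in HC.

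The genes most like each connexin over the 12 replicates were found by the root mean square difference of centred log2 scores, as a description in which replicates share 4 groups. Nearest to Gjb2 were Tiam2 (0.18), Scube3 (0.20) and Galnt2 (0.20), and to Gjb6 Ptprt (0.17), Erbb4 (0.19) and Fam83f (0.19). Gja1 was nearest to Met (0.17), Tpm2 (0.17) and Ctsh (0.18), and Gjc1 to Tead2 (0.10), Epb4.1l3 (0.11) and Epb4.1l2 (0.13). Nearest to Gjc3 were Ror1 (0.18), Camkk2 (0.18) and Arf2 (0.19), and to Gjb1 Gab1 (0.10), Os9 (0.11) and Lrpap1 (0.12). Gja4 had the most distant neighbours, Cdh10 (0.38), Mxd3 (0.43) and Cenpn (0.43).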

How the data were processed

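The authors trimmed 50 base single-end reads, aligned them to mm10 with TopHat2 in PartekFlow, per the study's methods and processing notes, and deposited normalized read scores (1 score per gene in each of 12 replicates). The methods speak of RPKM, but 1 read is worth the same score in every gene of a replicate (0.0351 to 0.0461), so no division by gene length had been made, and 1 had been added. Dividing the score above 1 by that step gave reads, of which 73.7% to 75.3% below 50 reads were whole within 0.02, too few for a count test. Genes with at least 100 such reads over the 12 replicates were tested (16088), and 2954 of 23420 genes had no reads. Libraries were sequenced in lanes of several samples, and which lane held which is not given in the sources used here.

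Log2 scores of the 4 groups were fitted with limma 3.58.1 (R 4.3.3) in 1 model with a variance trend. P-values are two-sided and adjusted over all genes tested, and they measure the spread between these replicates. Gentamicin contrasts were called at a change of more than 1.2-fold with an unadjusted p under 0.01, the others at an adjusted p under 0.05. The HC gentamicin and HC against NHC contrasts share the control HC replicates. The fit was also run on simulated scores with independent noise in each replicate. These held no pairing and no scaling shift between replicates, so that run does not bear on either. Ratios were compared by exact permutation tests (scipy 1.17.1). The 8 genes and the lists were chosen with earlier results of these data known. All 8 were named, with genes of the fixed lists called in a contrast (all up to 5, otherwise the 3 largest in each direction) and the 3 nearest genes with a mean score of at least 5. Replicate numbers stand in the column headers only. Same-numbered control HC and control NHC replicates deviated together (r = 0.216, 0.316 and 0.200 across genes). The main fit and the ratio tests did not model this pairing and treated the replicates as independent. A fit with the replicate block did model it, and the block changed no call in that contrast. Alternatives were TMM, total-read scaling, an offset of 0.1, minimums of 0 and 1000 reads, the replicate block, compared groups alone, voom weights, the adjusted p, and each replicate left out. Promoters were from RefSeq for 7 of the 8 genes (not Gjc1), and gene models from GENCODE M21. Some genes of the fixed lists are not reported here.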

Additional observations from a re-analysis of the deposited data

Results flagged for a closer look

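The response to gentamicin differed between HC and NHC for 2 of the connexin genes by the interaction test. For Gja1 the log2 fold change was -0.94 in HC and -0.24 in NHC, a difference of -0.71 (limma adjusted p = 0.0451), and this call was lost with the replicate block (limma adjusted p = 0.0589), total-read scaling, no read minimum and voom weights. For Gjc3 it was -0.48 in HC and 0.49 in NHC, a difference of -0.97 (limma adjusted p = 0.0278), and this call was lost with voom weights (limma adjusted p = 0.0853). The NHC change of Gjc3 alone did not pass the thresholds with all replicates and no replicate block. Neither call held in every fit that left out a replicate. Most endothelial, fibrocyte and mesenchyme, Schwann cell and glia, mural and supporting cell markers had interaction estimates below 0 as well. What part RNA of those cells had in the 2 differences was not tested.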

How the results depend on the processing

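The count of connexin genes called in HC with gentamicin was 3, and it was 1 (Gja1) with reads scaled by their totals and with voom weights, and 1 to 3 with each replicate left out. It was 1 without HC control replicate 3 and without HC gentamicin replicate 2. In NHC the count of 0 became 1 (Gjc3) with the replicate block, and was 0 to 1 with a replicate left out. The interaction count of 2 became 1 (Gjc3) with total reads and with no minimum, and 0 with voom weights, and was 0 to 4 with a replicate left out. It was 0 without HC control replicate 2 or 3, HC gentamicin replicate 1 or 2, or NHC control replicate 1, and 4 without HC gentamicin replicate 3. Between the control populations the count of 6 was 4 to 5 with a replicate left out, 5 with no minimum, which brought in Gja5, and 4 at a minimum of 1000 reads, under which Gja4 and Gjb1 were not tested. Beyond that, the cause of these changes was not tested. TMM moved the median of all genes between the control populations from -0.12 to -0.02.

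The estimates that changed sign did so only with a replicate left out and were not called in any fit. They ranged from -0.0968 to 0.0124 for Gjb1 in HC, and in NHC from -0.0861 to 0.130 for Gjb6, -0.446 to 0.804 for Gja4, -0.0825 to 0.104 for Gjc1 and -0.0533 to 0.223 for Gjb1. In the interaction they ranged from -1.07 to 0.180 for Gja4 and -0.256 to 0.0201 for Gjb1.

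Replicates with the same number did not deviate together throughout between control and treated samples (r = 0.0367, 0.0522 and 0.0369 in HC, and 0.208, -0.232 and 0.683 in NHC). These values cannot show whether the samples were paired there. Treated HC and treated NHC were not compared in this way. With the replicate block 4 genes were called in HC (Gja1, Gjb2, Gjb6 and Gjc3), 1 in NHC and 2 in the interaction (Gjb2 and Gjc3). At this depth Gja5, Gjb1 and Gja4 rested on 78, 134 and 681 reads over the 12 replicates, which limits what can be said of them.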
